A study of Mus musculus with 4 samples.

Results

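The genes described are 10 that mark the cells lining vessels: Pecam1, Cdh5, Kdr, Tek, Tie1 and Plvap for blood vessels, and Lyve1, Prox1, Flt4 and Pdpn for lymphatic vessels. They were chosen by name, out of 21153 named genes with a probe, and all 10 had at least 1 probe, 13 in all. Whole small intestine was compared between wild-type mice and Cyp3a-/- mice, which lack the cluster of neighbouring Cyp3a genes, with 2 arrays per genotype, called WT 1, WT 2, KO 1 and KO 2 here. The labels describe independent experiments on different animals; the number of animals behind an array, and their strain, age and sex, are not given in the sources used here. No treatment is named for either genotype. Each level is a log2 signal set against that array's own 75th percentile, so a probe at 0 is as bright as that percentile, and each difference is that of the knockout mean minus the wild-type mean, with limma's standard error (SE) in a fit over 14399 tested genes. A gene was tested if at least 1 of its probes gave signal well above background on 2 or more of the 4 arrays. The brightest such probe stood for the gene. This filter left 5 of the 6 blood vessel genes and 2 of the 4 lymphatic genes.

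Endothelial cells line every vessel of the gut wall. The growth factor VEGF-A acts on them through the receptor VEGFR2, encoded by Kdr, and angiopoietins act through Tie2, encoded by Tek, with Tie1 as its partner receptor. Lymphatic vessels, including the lacteals of the villi that take up absorbed fat, depend on VEGF-C acting through VEGFR3, encoded by Flt4, and on the transcription factor Prox1. Villus capillaries are fenestrated, and the protein of Plvap forms the diaphragms that span their pores.

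Endothelial promoters are known for binding sites of ETS transcription factors, whose core is GGAA. The promoter windows of 6 members matched the RefSeq table of build GRCm38.p6 by symbol (Flt4, Kdr, Pdpn, Prox1, Tek and Tie1; not Cdh5, Lyve1, Pecam1 or Plvap). The 250 bases before the start are printed for the receptor whose levels did not overlap between genotypes, for the receptor whose probes disagreed, and for a lymphatic gene, each 5' to 3' with GGAA or its reverse complement TTCC in capitals. They lie at chr4:118489850-118490099, minus strand (Tie1), chr5:75978456-75978705, minus strand (Kdr), and chr4:143299565-143299814, minus strand (Pdpn).
Tie1: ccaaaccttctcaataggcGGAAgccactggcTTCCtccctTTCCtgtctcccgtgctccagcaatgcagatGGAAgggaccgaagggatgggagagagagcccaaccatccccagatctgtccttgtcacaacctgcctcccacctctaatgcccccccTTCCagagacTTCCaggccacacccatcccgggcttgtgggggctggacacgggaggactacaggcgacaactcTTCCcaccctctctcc
Kdr: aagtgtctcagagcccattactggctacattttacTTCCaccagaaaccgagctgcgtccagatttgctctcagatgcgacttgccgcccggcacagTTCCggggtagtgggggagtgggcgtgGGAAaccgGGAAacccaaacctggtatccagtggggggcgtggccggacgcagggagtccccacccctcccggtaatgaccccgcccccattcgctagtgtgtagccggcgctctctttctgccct
Pdpn: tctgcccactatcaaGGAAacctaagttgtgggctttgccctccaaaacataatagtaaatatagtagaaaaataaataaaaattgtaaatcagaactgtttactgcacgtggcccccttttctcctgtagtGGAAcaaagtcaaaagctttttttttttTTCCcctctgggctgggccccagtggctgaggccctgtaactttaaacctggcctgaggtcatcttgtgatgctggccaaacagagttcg
The Tie1 window held 7 matches on both strands together, the Kdr window 4 and the Pdpn window 3. Of 32851 promoter windows of the same length, 93.4% held at least 1 match, with a median of 3, and 3.82% held at least 7. AGATAA, the core bound by GATA factors, was in 0 of these 3 windows on either strand and in 9.99% of all windows, and ACAAT, a core bound by SOX factors, was in the Pdpn window and in 27.7% of all. The windows not printed held 2 GGAA or TTCC matches for Flt4, 2 for Tek, and 5 and 2 for Prox1. A match is a description of letters, and binding was not measured.

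The arrays had a 75th percentile of signal between 175 and 356, and the number of arrays, 2 per genotype, limits the precision of every value. WT 2 and KO 1 shared a slide and its scan, and the other arrays were each on a slide of their own. All 6 tested Cyp3a cluster genes were lower in both knockout arrays, where none was well above background, by at least 27.2-fold (Cyp3a41b) to at least 920-fold (Cyp3a11), with limma's adjusted p of 0.00167 to 0.0259. These bounds set the wild-type mean against the mean over the knockout arrays of the higher of the gene's own level and the lowest level well above background there. The arrays KO 1 and KO 2 correlated at 0.948 over all tested genes, against 0.979 for the wild-type arrays. KO 2 correlated with WT 1 at 0.981 and with WT 2 at 0.980, and KO 1 at 0.966 and 0.962. So KO 1 was the array least like the others.

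No endothelial gene passed the threshold of 0.05, and limma's adjusted p was 1.00 for each of the 7 tested members. Limma called 0 of the 5 tested blood vessel genes and 0 of the 2 tested lymphatic genes, where it called 0.0417% of all tested genes, namely the 6 Cyp3a genes. At an unadjusted p under 0.05 there were 64 genes over all, or 0.444%, and 0 members. Both knockout arrays lay below both wild-type arrays for 2 of the 5 blood vessel genes, Plvap and Tie1, and for 0 of the 2 lymphatic genes, where this held for 6.1% of all tested genes. Both lay above for 0 of the 7, against 8.67% over all genes. The Tie1 signal was not well above background on KO 2, so its order there is that of a dim spot.

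Plvap had the lowest difference of the tested members. Its level was 1.34 in WT 1, 1.14 in WT 2, 0.88 in KO 1 and 0.70 in KO 2. Both knockout arrays were below both wild-type arrays, and the arrays of each genotype lay close together (1.24 ± 0.14 against 0.79 ± 0.13, SD, n = 2). The difference was -0.45 (SE 0.27, 95% interval -1.10 to 0.20), 1.37-fold lower. That interval reaches from 0.467 to 1.15 times the wild-type signal. A second, dimmer Plvap probe had levels of -2.06 in WT 1, -2.12 in WT 2, -2.35 in KO 1 and -2.20 in KO 2. On it too the genotypes did not overlap, with a difference of -0.19 (SE 0.31) in a fit of every probe on its own, which called 0.0292% of 24013 probes. Many of the 16 alternatives tried could not change the sign of the Plvap difference. Changes of the gene filter or variance model left it at -0.45, as did the authors' table of the same data. Leaving out an array, or using the shared slide alone, could not change the sign, as the genotypes did not overlap. With normexp background correction, quantile normalization, array median scaling, the mean of probes or the dimmer probe it ran from -0.53 to -0.19. Over all 16 the Plvap difference ran from -0.55 to -0.19, and it passed the threshold in 0 of those with a test. Within the slide that held both genotypes it was -0.26.

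The receptors were measured with unequal quality. Kdr, the main VEGF-A receptor of blood vessels, had levels of 3.90 in WT 1, 4.17 in WT 2, 3.75 in KO 1 and 4.31 in KO 2. The knockout arrays were the lowest and the highest of the 4, so the genotypes overlapped and their means were alike (difference -0.000122, SE 0.33, 95% interval -0.79 to 0.79). A second Kdr probe, A_51_P316553, read 0.11 in WT 1, 0.29 in WT 2, 0.32 in KO 1 and -0.48 in KO 2. On this probe KO 2 was the lowest array, where on the brighter probe, A_55_P2094469, it was the highest. The second probe's difference was -0.28 (SE 0.35). Both probes carry the same Kdr accession, and which of them follows the transcript more closely was not tested.

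Tie1 was at -3.54 in WT 1, -3.65 in WT 2, -3.76 in KO 1 and -3.84 in KO 2. The genotypes did not overlap, but the signal was dim: it was well above background on 3 arrays and not on KO 2. The difference was -0.21 (SE 0.40, 95% interval -1.20 to 0.77), and -0.12 within the shared slide. Tek, the angiopoietin receptor, was well above background on 1 array, WT 2, and so was not tested. Its levels were -4.70 in WT 1, -4.12 in WT 2, -5.25 in KO 1 and -4.23 in KO 2 and, with 3 of the 4 not well above background, have no order.

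The junction genes did not separate by genotype. Pecam1, which encodes the adhesion molecule CD31 and is also made by platelets and white blood cells, was at -2.69 in WT 1, -2.85 in WT 2, -2.57 in KO 1 and -2.90 in KO 2. KO 1 was the highest and KO 2 the lowest array, and the difference was 0.03 (SE 0.36, 95% interval -0.85 to 0.92). Cdh5, which encodes VE-cadherin of the endothelial adherens junction, read -2.34 in WT 1, -1.96 in WT 2, -1.98 in KO 1 and -2.66 in KO 2. KO 1 lay within the wild-type range and KO 2 below it, giving -0.17 (SE 0.39, 95% interval -1.12 to 0.78). The white blood cell and platelet list (6 of 9 genes tested) had medians relative to wild type of -0.67 in KO 1 and -0.26 in KO 2, its summed signal was 5.74 in WT 1, 4.33 in WT 2, 3.43 in KO 1 and 4.63 in KO 2, as multiples of the 75th percentile, and its markers Itga2b and Ppbp were on no array well above background. The part of those cells in the Pecam1 values was not tested.

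**Figure D1:**
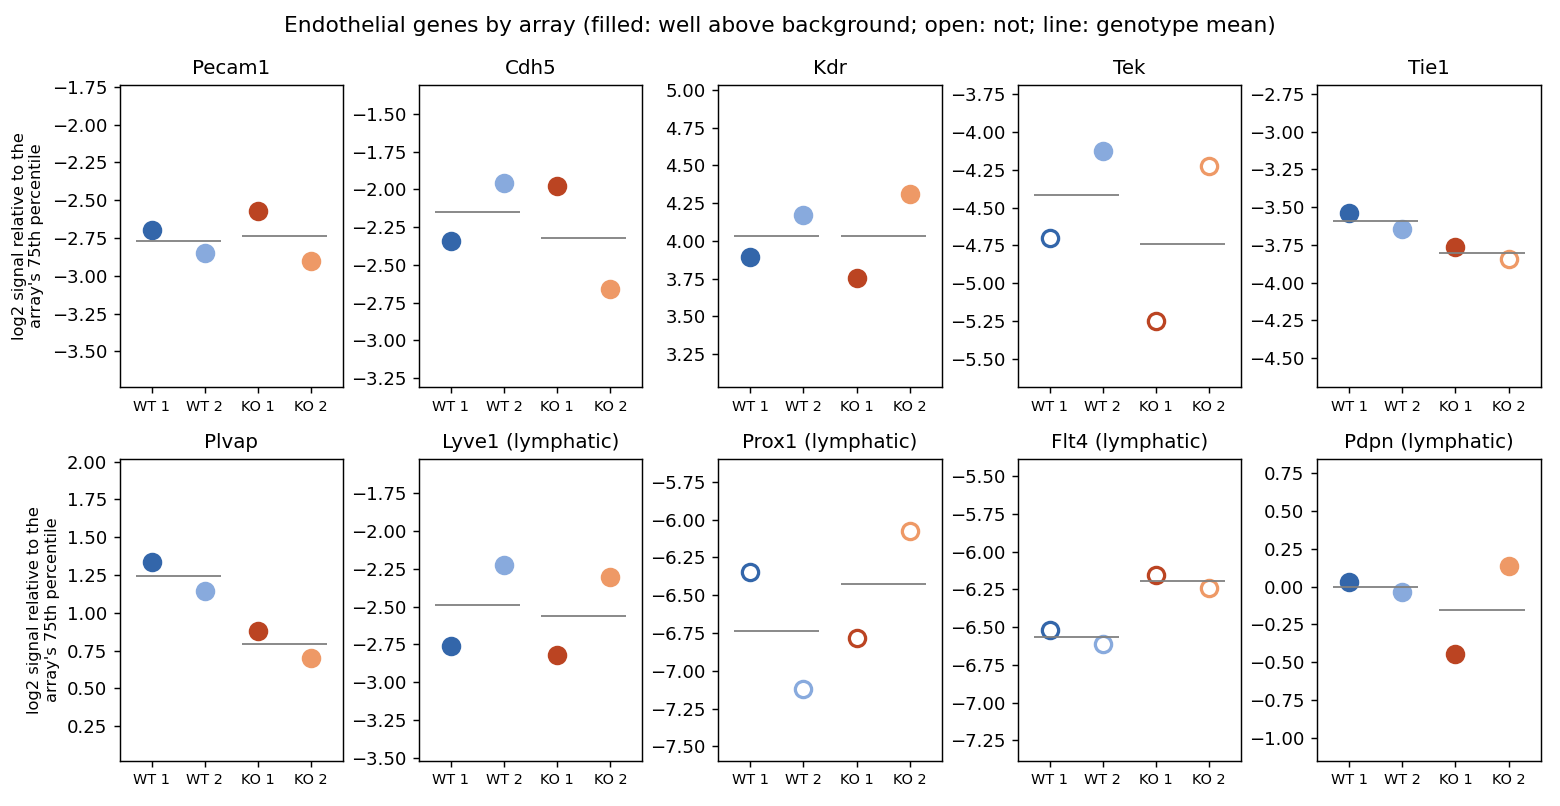
Log2 signal relative to the array's 75th percentile (vertical axes, each spanning the same number of log2 units) of the 10 endothelial genes on wild-type (WT) and knockout (KO) arrays; filled points are well above background, open points are not, and lines are genotype means. Plvap and Tie1 lie lower in both knockout arrays without overlap, while Kdr and Pecam1 have a knockout array on either side of the wild-type range.

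Of the lymphatic genes only Lyve1 and Pdpn were measurable. Prox1, the transcription factor that sets lymphatic identity, and Flt4, the VEGF-C receptor, were on no array well above background. Their levels ran from -7.12 to -6.07 and from -6.61 to -6.16, which at this brightness have no order and give no fold. Lyve1, which encodes a hyaluronan receptor of lymphatic endothelium that some macrophages also carry, was at -2.76 in WT 1, -2.22 in WT 2, -2.82 in KO 1 and -2.31 in KO 2. One array of each genotype was low and the other high, so the genotypes overlapped (difference -0.07, SE 0.40, 95% interval -1.04 to 0.89). Within the shared slide, where WT 2 was a high array and KO 1 a low one, the Lyve1 difference was -0.60.

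Pdpn, which encodes podoplanin of lymphatic endothelium and of some fibroblasts, read 0.03 in WT 1, -0.04 in WT 2, -0.44 in KO 1 and 0.14 in KO 2. The wild-type arrays were nearly equal, KO 1 lay below them and KO 2 above, and the difference was -0.15 (SE 0.31, 95% interval -0.91 to 0.61). A second Pdpn probe was on no array well above background. Fibroblast genes (8 of 8 tested) had medians relative to wild type of -0.58 in KO 1 and 0.25 in KO 2, the same order of the knockout arrays as Pdpn. Their summed signal was 42.7 in WT 1, 56.7 in WT 2, 36.8 in KO 1 and 64.4 in KO 2, as multiples of the 75th percentile. Macrophage genes (8 of 9 tested) had medians of 0.03 and -0.32, the opposite order to Lyve1. The macrophage sums were 19.9 in WT 1, 15.2 in WT 2, 22.6 in KO 1 and 14.0 in KO 2, and the macrophage marker Cd163 was on no array well above background. The part of either cell type in the lymphatic values was not tested. In bulk tissue fewer endothelial cells and less RNA per cell cannot be told apart.

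Over the tested members, the median difference was -0.17 for the 5 blood vessel genes and -0.11 for the 2 lymphatic genes, against 0.04 for all tested genes. By array, the blood vessel median, set against the wild-type mean, was -0.17 in KO 1 and -0.25 in KO 2, with the wild-type arrays at 0.05 and -0.05. The lymphatic median was -0.38 in KO 1 and 0.16 in KO 2, with the wild-type arrays at -0.12 and 0.12. So the blood vessel median was under that of both WT 1 and WT 2 on KO 1 and on KO 2 alike, and the lymphatic median on KO 1 only. On both knockout arrays the blood vessel median was the Tie1 value, and Tie1 was not well above background on KO 2. The summed blood vessel signal, in which Kdr was the brightest gene, did not follow the median. It was 17.9 in WT 1, 20.7 in WT 2, 15.8 in KO 1 and 21.9 in KO 2, as multiples of the 75th percentile. With a normexp background correction both medians turned positive, 0.56 and 0.20. It started from the median signal and background of each spot and added an offset. Which of these steps moved the medians was not tested. Whether the 2 groups differ from each other was not tested.

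**Figure D2:**
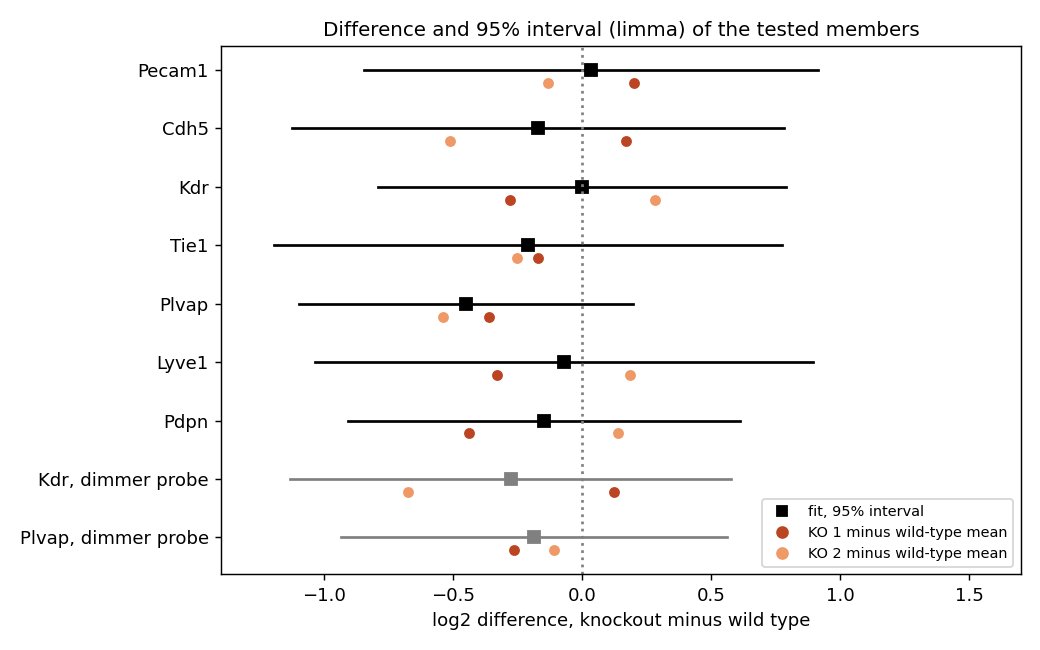
Log2 difference, knockout minus wild type (horizontal axis), of the 7 tested members and of the dimmer Kdr and Plvap probes; squares and lines are limma's estimate with its 95% interval, and circles are each knockout array minus the wild-type mean. Every interval covers 0, and both knockout arrays lie below 0 for Tie1 and for both Plvap probes.

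Other genes were taken from lists of endothelial pathways, which include ligands that act on endothelium. Of 58 genes that had a probe, 48 were tested. Limma called 0 of the 48 in either direction, and 38 had a negative difference, against 43.8% of all tested genes; with a normexp correction 18 of the 48 were negative. The median over these genes was -0.19; leaving KO 1 out turned it to 0.05, with 23 of 48 negative. KO 1 lay below both wild-type arrays for 34 of the 48 (70.8%) and KO 2 for 19 (39.6%), where 34.4% and 26.6% of all tested genes did so. Both knockout arrays lay below both wild-type arrays for 12 of the 48, or 25%, against 6.1% of all tested genes, a difference that was not tested, and above for 1, Mmrn1, an extracellular matrix protein gene of lymphatic endothelium, which stood 0.08 above the wild-type mean in KO 1 and 0.16 above it in KO 2.

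Among genes of endothelial junctions and cell surface, 13 of 13 tested genes had a negative difference, against 43.8% of all tested genes. The median was -0.30. With normexp 8 of 13 were negative, and with arrays scaled by their median 12 of 13. Lower levels without overlap held for 7 of the 13, against 6.1% of all tested genes. KO 1 was below both wild-type arrays for all 13, with a median of -0.46, and KO 2 for 7, with a median of -0.10. Without KO 1 the median difference was -0.10 with 9 of 13 negative. Esam, an adhesion molecule of endothelial junctions, was at -1.01 in WT 1, -0.46 in WT 2, -1.30 in KO 1 and -1.06 in KO 2 (difference -0.44, SE 0.33). Gpihbp1, which carries lipoprotein lipase across capillary endothelium, read -1.23 in WT 1, -1.24 in WT 2, -1.94 in KO 1 and -1.34 in KO 2, with both knockout arrays lower but by unequal amounts (difference -0.41, SE 0.34). Mmrn2, an endothelial matrix protein, had levels of 0.80 in WT 1, 0.68 in WT 2, 0.12 in KO 1 and 0.64 in KO 2 (difference -0.36, SE 0.30). The other genes without overlap were Emcn, Icam2, Robo4 and Nos3, named because they make up that count, with differences of -0.44, -0.30, -0.23 and -0.32. The Emcn signal was dim and well above background on only 3 arrays.

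Receptors that act beside the members were negative in 7 of 7 tested genes, with a median of -0.24, against 43.8% negative of all tested genes. Lower levels without overlap held for 3 of the 7, against 6.1% of all tested genes. KO 1 was below both wild-type arrays for all 7, and KO 2 was below both for 3 and above both for 3. Flt1, which encodes the VEGF receptor that binds VEGF-A tightly and limits its action, was at 1.15 in WT 1, 1.12 in WT 2, 1.01 in KO 1 and 0.89 in KO 2 (difference -0.18, SE 0.26). Ptprb, the phosphatase that restrains Tie2, read 0.73 in WT 1, 0.49 in WT 2, 0.32 in KO 1 and 0.39 in KO 2 (difference -0.26, SE 0.27). For both genes KO 1 and KO 2 lay on the same side of the wild-type arrays. Ramp2, a partner of the adrenomedullin receptor, differed by -0.29 (SE 0.30), by -0.55 in KO 1 and -0.03 in KO 2. Relative to wild type the list's median was -0.54 in KO 1 and 0.06 in KO 2.

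The ligands differed in direction, with 5 of 7 tested genes negative and 0 without overlap. Of all tested genes, 43.8% were negative, 6.1% were lower without overlap and 8.67% were higher without overlap, so a count of 0 in 7 is near those shares. Vegfb, a VEGF that binds Flt1, was at -0.53 in WT 1, -0.43 in WT 2, -1.81 in KO 1 and -0.37 in KO 2. The value of KO 1 alone was low, and the difference was -0.61 (SE 0.50). Without KO 2 the Vegfb difference was -1.33 and passed the threshold (limma's adjusted p = 0.0482), with the lone knockout array assumed to vary like the others; it was the 1 of 48 pathway genes called in that fit, which called 3.06% of all tested genes. Vegfd, a ligand of VEGFR3, and Angpt2, an angiopoietin released by endothelium, differed by -0.28 (SE 0.45) and -0.31 (SE 0.48). Vegfa, the main ligand of the receptor encoded by Kdr and named here after its values were seen, stood 0.62 above the wild-type mean in KO 1 and -0.87 relative to it in KO 2, beyond both wild-type arrays on opposite sides.

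Endothelial transcription factors were negative in 6 of 8 tested genes, with 0 of 8 without overlap and a median of -0.13. Over all tested genes, the shares to set beside each list of this paragraph were 43.8% negative, 6.1% lower without overlap and 8.67% higher. In so few genes, 0 without overlap is near those shares. Sox18, which acts upstream of Prox1, differed by -0.35 (SE 0.41), Sox17 by -0.25 (SE 0.48) and Lyl1 by -0.22 (SE 0.35). Arterial and venous genes of the Notch and ephrin pathways were split, 4 of 8 negative and a median of 0.01. The connexin gene Gja4 was lower without overlap (-1.52 in WT 1, -1.87 in WT 2, -2.38 in KO 1 and -1.98 in KO 2, difference -0.49, SE 0.35). Dll4, the Notch ligand of sprouting tip cells, and Efnb2, an arterial ephrin, stood high in KO 1 alone, 1.08 and 1.05 above the wild-type mean, against -0.16 and -0.12 in KO 2. Of 5 tested genes in the list of other lymphatic genes, 3 were negative. Nfatc1, a transcription factor of lymphatic valves, was at -0.91 in WT 1, -0.80 in WT 2, -1.30 in KO 1 and -1.31 in KO 2, both knockout arrays lower and nearly equal (difference -0.45, SE 0.29). Ackr2, a chemokine-scavenging receptor, differed by 0.20 (SE 0.46). Reln, Adamts3 and Foxc2, like Prox1 and Flt4, were on no array well above background.

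**Figure D3:**
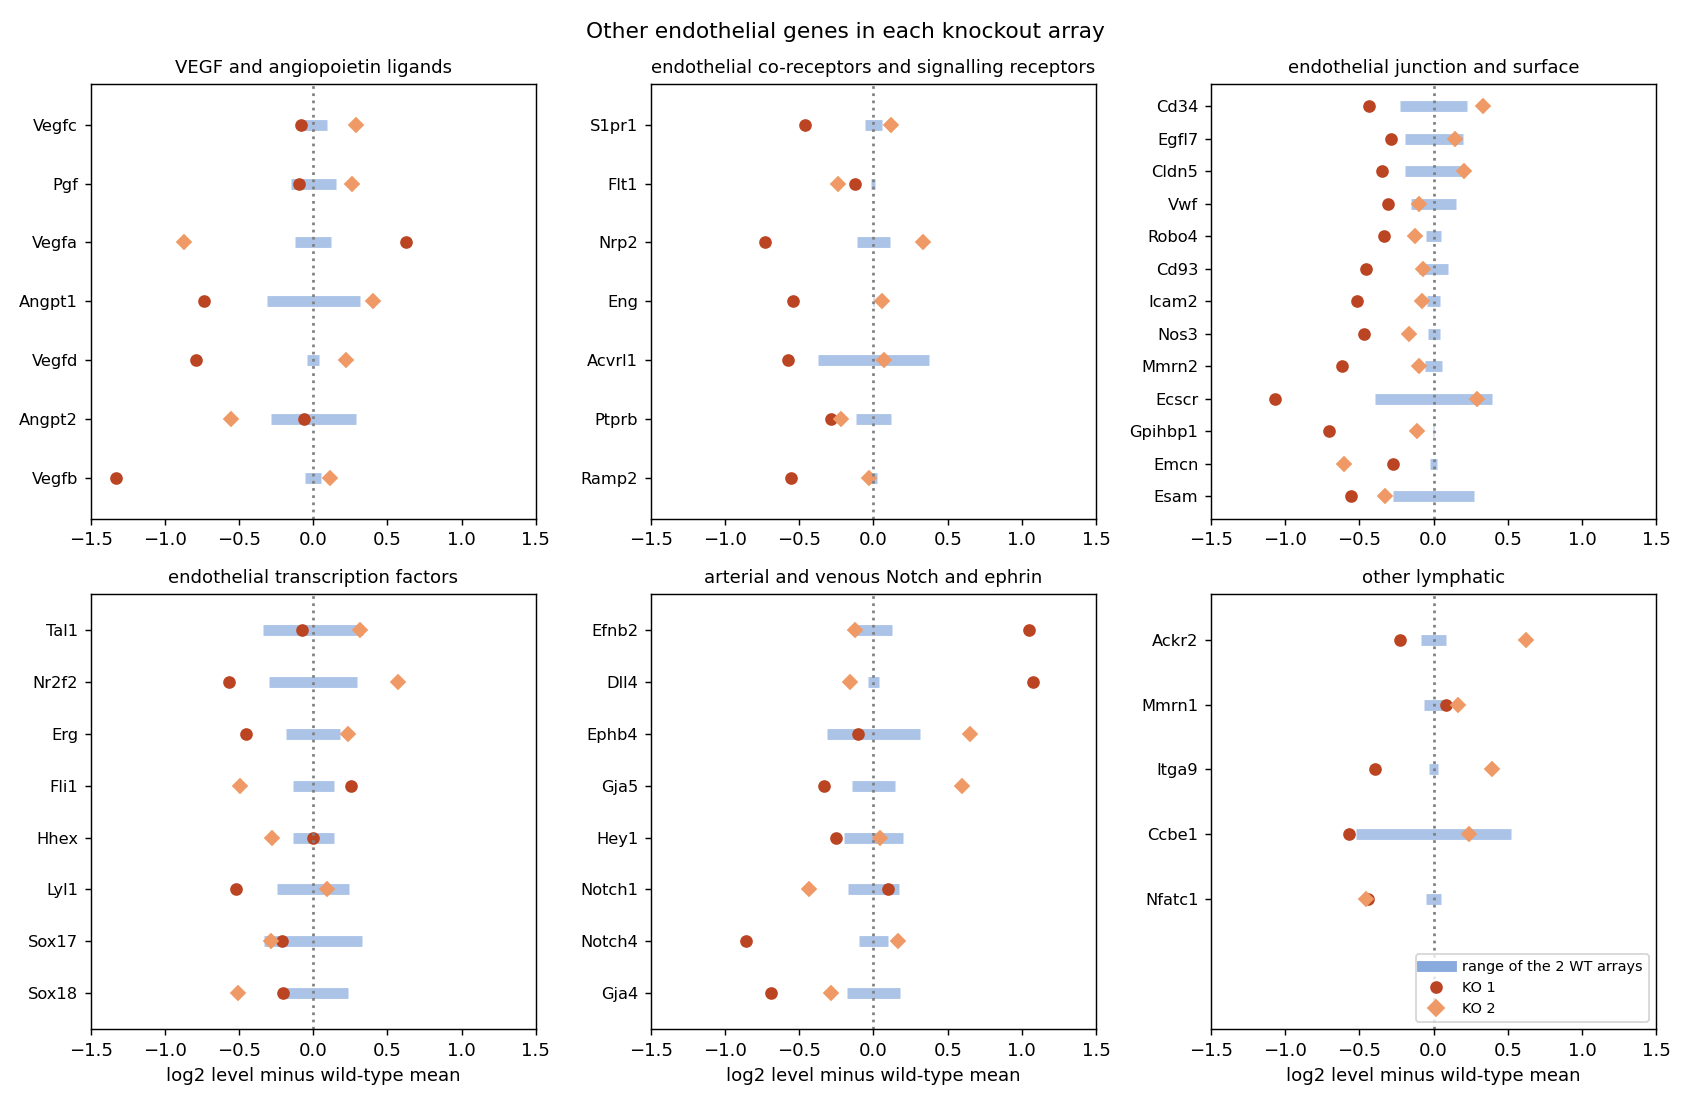
Log2 level minus the wild-type mean (horizontal axes) of 48 other genes of endothelial pathways by list, among them ligands that act on endothelium. Bars span the wild-type arrays, circles are KO 1 and diamonds KO 2. In the junction and surface list every KO 1 circle lies left of the wild-type bar, while 7 of the 13 KO 2 diamonds do.

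Markers of muscle, pericytes and enterocytes differed between the knockout arrays. Smooth muscle genes (8 of 8 tested) had medians relative to wild type of -0.94 in KO 1 and 0.68 in KO 2, with Tagln at 5.67 in WT 1, 5.93 in WT 2, 4.88 in KO 1 and 6.59 in KO 2, and their summed signal was 184 in WT 1, 210 in WT 2, 104 in KO 1 and 316 in KO 2, as multiples of the 75th percentile. Pericyte genes (7 of 8 tested), of the cells that wrap capillaries, had medians of -0.75 and 0.06, with Rgs5 at 1.96 in WT 1, 2.48 in WT 2, 1.47 in KO 1 and 2.66 in KO 2, and sums of 36.6 in WT 1, 51.3 in WT 2, 32.2 in KO 1 and 46.4 in KO 2. Enterocyte genes (12 of 12 tested) ran the other way, 0.91 and -0.10, with sums of 1165 in WT 1, 747 in WT 2, 1473 in KO 1 and 842 in KO 2. The blood vessel median was below both wild-type arrays in KO 1 and in KO 2. Their summed blood vessel signal was the lowest in KO 1 and the highest in KO 2. KO 1 lay below both wild-type arrays for 3 of the 5 tested blood vessel genes. Pecam1 and Cdh5 stood 0.20 and 0.17 above the wild-type mean there. The part of tissue makeup in the endothelial values was not tested.

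Red blood cell genes (6 of 8 tested) had medians of -0.73 in WT 1, 0.73 in WT 2, -0.10 in KO 1 and 0.88 in KO 2. Hba-a2, an alpha globin gene, was at 3.88 in WT 1, 5.22 in WT 2, 4.29 in KO 1 and 5.65 in KO 2, so within each genotype 1 array held more globin signal; the list's summed signal was 17.7, 47.1, 24.5 and 60.1 times the 75th percentile in the same order. The Lyve1 levels were high on the same arrays, WT 2 and KO 2, and the Plvap levels were not. Hepatocyte genes (6 of 7 tested) had medians of 1.02 in WT 1, -1.02 in WT 2, -2.35 in KO 1 and -0.44 in KO 2. Their summed signal was 6.29, 3.19, 0.813 and 3.23 in that order. Lyve1 and Stab2 are also genes of liver sinusoids. The Stab2 level was -3.41 in WT 1, -3.97 in WT 2, -4.40 in KO 1 and -4.09 in KO 2, and the other 4 genes of the sinusoid list (Clec4g, Fcna, Clec4f and Oit3) were on no array well above background. Of the hepatocyte genes, Alb, Ahsg and Apoh were well above background on only 2 arrays each. Ttr and F2 were higher on WT 2 than on WT 1, the other way from the list's median. The part of blood or liver cells in the Lyve1 level was not tested.

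**Figure D4:**
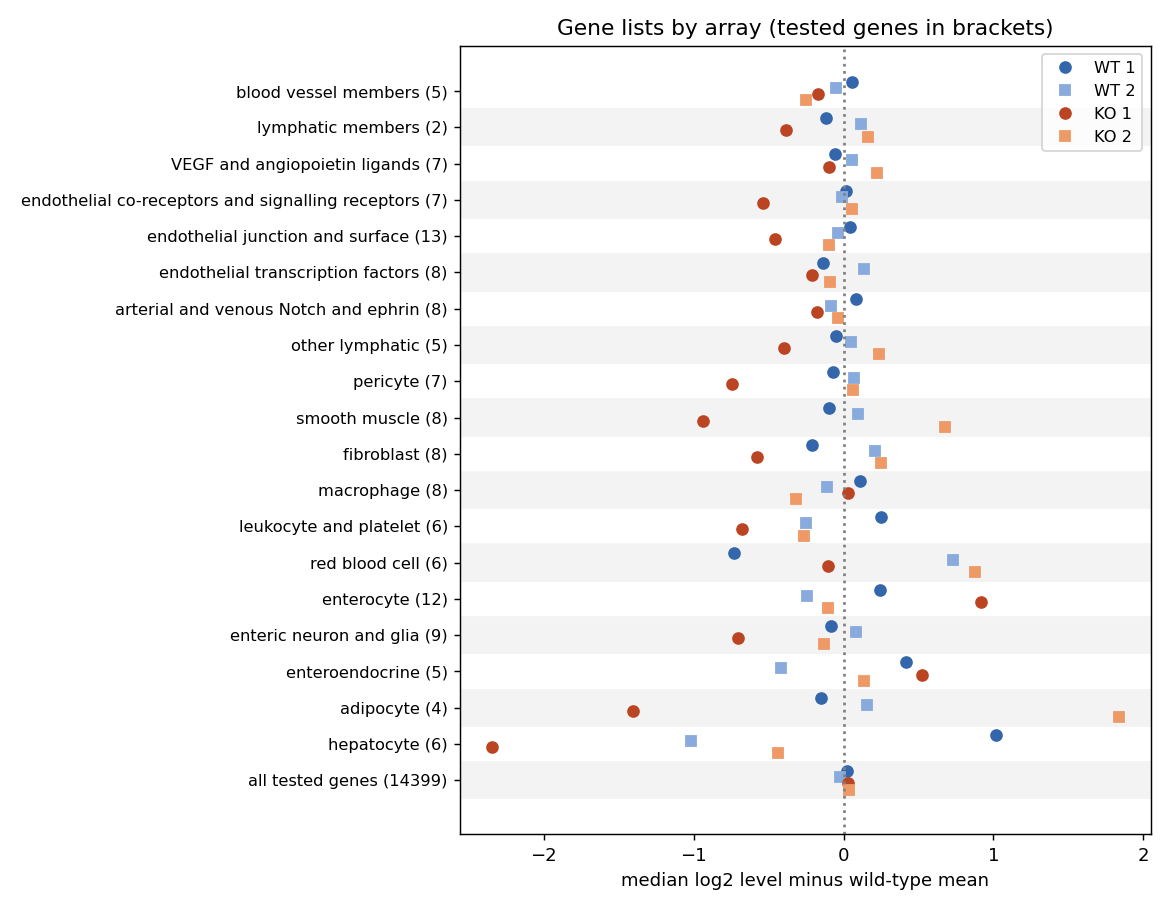
Median log2 level minus the wild-type mean (horizontal axis) over the tested genes of each list (number in brackets) on the 4 arrays. The blood vessel genes spread from -0.25 to 0.05, smooth muscle genes from -0.94 to 0.68, and all tested genes lie near 0.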

How the data were processed

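Cy3-labelled cRNA from total RNA of small intestine was hybridised to Agilent arrays in 1 colour, per the labels. The submitters' processing notes name Agilent Feature Extraction 11.5.1.1 for image reading. Per the file headers, a spot's deposited intensity had its background subtracted and spatial trend removed, with no scaling between arrays. The authors' deposited table holds log2 values that matched log2 intensity minus each array's 75th percentile and each probe's median (correlation 1.00 over 39408 probes), so it keeps differences but no levels.

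Outlier-flagged spots, 91 to 129 on an array, and control spots were dropped before averaging over each probe's spots. Of 39429 probes, 28025 were named by matching the probe's accession to RefSeq genes of GRCm38.p6 and 11404 had no match; the arrays are annotated on another build, so that table gave names and promoter sequences only. For a tested gene, the brightest probe that passed the background filter stood for it. Genotypes were compared with limma 3.58.1 under R 4.3.3 (lmFit, eBayes with an intensity trend, Benjamini-Hochberg over 14399 genes). The fit was tested on simulated data. Levels are mean ± SD over 2 arrays.

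The members and lists were chosen with earlier results of these data known. Named genes are the members, 3 genes of smallest p per pathway list, marker genes of highest level, and the 4 genes of most similar profile per group; others are said to be named after their values were seen. Some genes that these rules name are not reported here.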

Additional observations from a re-analysis of the deposited data

How the results depend on the processing

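No tested member passed the threshold in any of the alternatives; the smallest adjusted p per gene over them lay between 0.614 and 0.876 (limma). Normexp gave a median of 0.56 for the blood vessel genes and 0.20 for the lymphatic genes. With it Cdh5, at 0.56, Tie1, at 0.82, and Lyve1, at 0.60, all turned positive. Its offset was 50, on arrays whose 75th percentiles of processed signal ran from 175 to 356. The reason for the change of sign was not tested. Within the shared slide the lymphatic median was -0.50. With arrays scaled by their median, Kdr was at 0.059. Leaving out each array, the medians ran from -0.25 to -0.042 (blood vessel) and from -0.38 to 0.16 (lymphatic). Over the same refits Pecam1 ran from -0.13 to 0.20, Cdh5 from -0.51 to 0.17 and Kdr from -0.28 to 0.28. Lyve1 ran from -0.34 to 0.20 and Pdpn from -0.44 to 0.14, and each of these ranges spans both signs. Plvap ran from -0.55 to -0.35 and Tie1 from -0.26 to -0.16. As the genotypes did not overlap for Plvap and Tie1, leaving out an array could not change their sign. The dimmer probes, and the count of negative pathway genes without each array, were chosen after seeing the data.

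Over all genes, normexp called 3 higher and 10 lower, and a filter for signal on all 4 arrays called 0 lower, since it removes the Cyp3a genes. Without single arrays the counts ran from 0 to 138 higher and from 0 to 303 lower, highest without KO 2. The numbers do not pair the samples by any label, and same-numbered arrays' deviations correlated at 0.05; a replicate block gave 6 higher and 26 lower and called no member. Dim signal limits Tek, Tie1, Prox1 and Flt4.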

Other observations

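Among the genes whose levels over the 4 arrays were closest in shape to the mean of the tested blood vessel genes, by root mean square distance of array-centred log2 levels, were Nkain1 (0.0141), Mapk1ip1 (0.0191) and Slc22a28 (0.0256). The mean blood vessel profile itself was 0.06 in WT 1, 0.10 in WT 2, -0.01 in KO 1 and -0.15 in KO 2. For the lymphatic genes, with a profile of -0.06, 0.17, -0.33 and 0.22 in the same order, the closest were Snupn (0.00518), Cobll1 (0.0111), Ms4a4c (0.0138) and Itsn1 (0.0224). With 4 arrays and 14399 genes such closeness is a description of these arrays.

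Enteroendocrine genes, some of which are made in cells that also express Prox1, had medians relative to wild type of 0.41 in WT 1, -0.41 in WT 2, 0.52 in KO 1 and 0.14 in KO 2. Adipocyte genes (4 of 6 tested) had medians of -1.41 in KO 1 and 1.84 in KO 2. Their summed signal ran the other way, highest in KO 1 at 15.5 and lowest in KO 2 at 7.91, as multiples of the 75th percentile. Cidec, the brightest, stood 0.52 above the wild-type mean in KO 1 and -0.96 relative to it in KO 2. The other 3 tested were below both wild-type arrays in KO 1 and above both in KO 2. Genes of enteric neurons and glia (9 of 10 tested) had medians of -0.71 in KO 1 and -0.13 in KO 2. Their summed signal was lowest in KO 1, at 54.6, and highest in KO 2, at 122.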
